A study of Cairina moschata with 9 samples.

Results

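In the abdominal fat of Muscovy ducks (Cairina moschata), 199 of 14814 genes were low only in birds of 66 weeks of age. Their mean levels at 12 and 35 weeks were similar to each other. These genes were chosen by measured values. A member had a mean of at least 1 FPKM and a value above 0 in all 9 libraries, and both its 12-week and its 35-week mean were at least 1.5 times its 66-week mean. Its highest 66-week value lay below the lowest of the 6 younger values, and its 12-week and 35-week means differed by at most 25%. FPKM is a fragment number scaled by transcript length and by the mapped fragments of the library. Because this choice used every library and every contrast between the ages, the difference between 66 weeks and the younger ages is given below as a description.

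The libraries came from birds of normal body weight, 3 at 12 weeks, 3 at 35 weeks and 3 at 66 weeks, with 1 library per bird. No treatment, sex or strain of the birds is stated in the labels. The library names carry a code of lane form, with 3, 4 and 5 for the libraries of 12, 35 and 66 weeks, so the lane and the age cannot be told apart. The birds were killed for sampling, so libraries of the same replicate number at different ages come from different birds. Genes reaching 1 FPKM numbered 10814 to 11291 per library. Relative depth, read from the FPKM value of a single fragment, ran from 0.891 to 1.283 with 1 as the mean, and assumes no further scaling between libraries. Replicate 3 of 12 weeks stood apart, with a mean Pearson's r over genes of 0.844 with the other 12-week libraries. Replicates 1 and 2 had 0.881 and 0.872 with those of their age. With the 35-week libraries, the mean r of replicate 3 of 12 weeks was 0.886, and that of replicates 1 and 2 was 0.879 and 0.854.

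Abdominal fat is the main internal fat depot of poultry. Its adipocytes take up fatty acids from lipoproteins, many of them made in the liver, store them as triglyceride and release them when feed is short. The depot also holds preadipocytes, vessels, nerves and immune cells, and its RNA is a mixture of all of these, so fewer cells of a type and less RNA per cell cannot be told apart. The deposited identifiers are not paired with gene names here, so no member could be given a function, no pathway list could be matched, and the markers that would check the tissue could not be read. Identifiers are printed for the 2 members with the largest fold difference.

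Of the 10825 genes that reached a mean of 1 FPKM and were above 0 in all libraries, called eligible genes below, 994 had both younger means at least 1.5 times the 66-week mean. The 66-week libraries lay below all 6 others in 434 of these, and 199 also met the 25% bound. The same separation without the fold and the bound was met by 725 eligible genes, 6.7% of them. A further 206 genes failed only because the ages overlapped, 235 only because their 12-week and 35-week means were too far apart, and 4 only because they were listed at 0 in some library. The opposite rule, with 66 weeks higher, found 192 genes. The members just inside the 1.5-fold threshold were 1.502-fold and 1.512-fold lower at 66 weeks, and the genes just outside it 1.492-fold and 1.493-fold lower.

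Most members differed by a small factor. The fold by which the 66-week mean lay under the smaller of the younger means had a median of 2.01 and a maximum of 15.4. It was under 2 in 97 members, at least 5 in 33 and at least 10 in 8. In 51 members the lowest younger value was less than 1.1 times the highest 66-week value, so the ages nearly touched, and in 27 it was at least 2 times that value. The mean level had a median of 10.4 FPKM, against 18.0 FPKM over the eligible genes. The 35-week mean was the higher younger mean in 138 members and the 12-week mean in 61. Members under 5 FPKM made up 33.7%, against 16.9% of the eligible genes, and 12 members reached a mean of 100 FPKM. Across members the log2 fold and the log2 mean level had a Spearman's rho of -0.46 (n = 199 genes, all from the same 9 libraries), with larger folds at lower levels.

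The younger birds were not alike in these genes. The median over the members was 9.53, 9.27 and 16.4 FPKM in replicates 1, 2 and 3 of 12 weeks, 10.8, 12.4 and 16.1 FPKM in those of 35 weeks, and 5.27, 5.69 and 4.81 FPKM in those of 66 weeks. Replicate 3 was the highest bird at 12 weeks and also at 35 weeks, while the 66-week birds lay close together. Over all tested genes the medians were even, at 15.98 to 16.99 FPKM. Replicate 3 was the highest of its age at both 12 and 35 weeks in 149 of the 199 members, 74.9%, against 27.2% of the eligible genes. The choice of members took no account of replicate numbers. It did ask that the 12-week and 35-week means be close, so a gene raised in 1 bird at 12 weeks passed only if the 35-week mean was about as high. The fold was asked of means that include replicate 3, and 68 members lay under 1.5-fold without it at both younger ages. The share of 74.9% is thus in part set by the choice. Among the 192 genes high only at 66 weeks, replicate 3 was the highest at both younger ages in 3. That rule asks every younger value to lie below those of 66 weeks. A gene raised in any younger bird passes it less easily, whatever the replicate number, so this count may be in part set by the rule. In the 192 genes, replicate 3 had a median ratio to the mean of its age mates of 0.78 at 12 weeks and 0.77 at 35 weeks. Over the eligible genes these ratios were 1.05 and 1.03. Neither the shares nor the ratios were tested against each other.

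**Figure D1:**
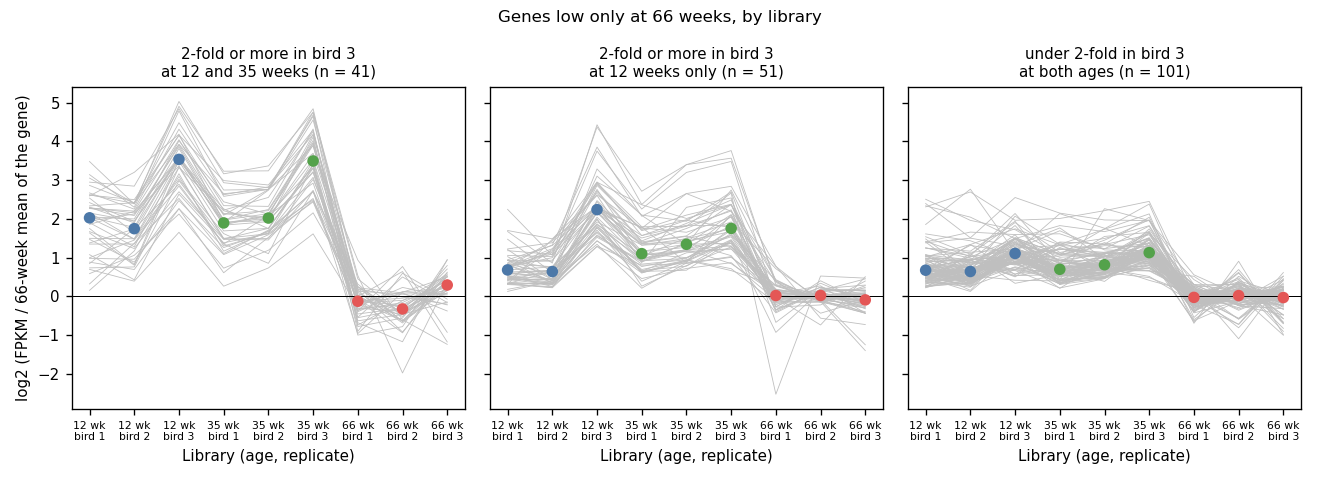
Log2 of FPKM over the 66-week mean of each gene (vertical axis) in the 9 libraries, with 1 grey line per member and the median of the members as a coloured point, for members raised at least 2-fold in replicate 3 at both younger ages (left), at 12 weeks only (middle) and at neither (right); the 6 raised at 35 weeks only are not drawn. On the left the medians of replicate 3 stand at 3.54 at 12 weeks and 3.50 at 35 weeks. Those of the other younger birds there stand at 1.75 to 2.03. On the right the younger medians run from 0.64 to 1.13, with replicate 3 the highest at both younger ages.

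Members were divided by whether replicate 3 was at least 2-fold the mean of the other 2 birds of its age, a division made after seeing these values. It was so at both ages in 41 members, at 12 weeks only in 51, at 35 weeks only in 6 and at neither in 101. No other pair of birds was raised in this way: in 0 members were any other 12-week and 35-week replicates both at least 2-fold the mean of their age mates. The 101 called raised at neither age were under 2-fold, and not free of an excess. Replicate 3 in them had a median ratio to its age mates of 1.37 at 12 weeks and 1.27 at 35 weeks. Over the eligible genes it was 1.05 and 1.03. Among eligible genes the pair of replicates 3 was raised in 174, 1.61%, and the next most frequent pair, replicate 2 of 12 weeks with replicate 1 of 35 weeks, in 108. The rule sets a fold on younger means that include these birds, so the count of 41 is in part set by the choice. The means include the birds of the other pairs too, in which 0 members were raised in this way. Whether the rule favours genes raised in 1 bird at each younger age was not tested. The log2 excess of replicate 3 at 12 weeks and that at 35 weeks had a Pearson's r of 0.51 across the members and 0.41 across the eligible genes. These are correlations over genes of the same 6 libraries.

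**Figure D2:**
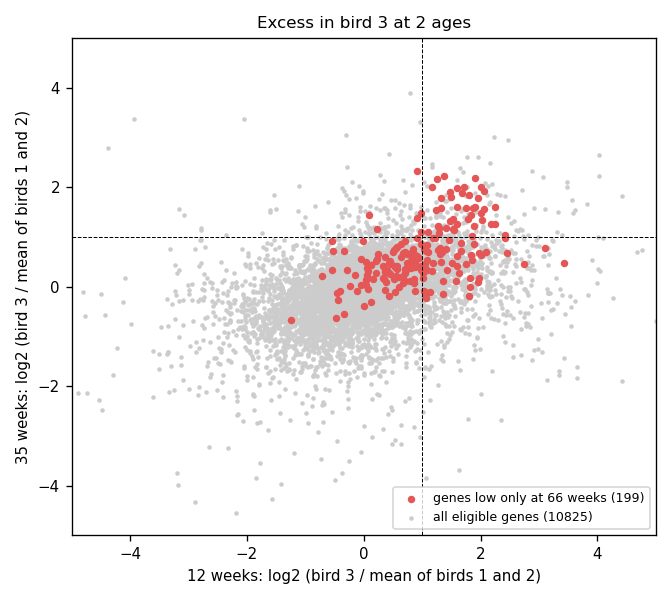
Log2 ratio of replicate 3 to the mean of replicates 1 and 2 at 12 weeks (horizontal) and at 35 weeks (vertical), for the 199 members in red over the 10825 eligible genes in grey, of which 32 lie outside the axes. Dashed lines mark 2-fold, and 41 members lie above it at both ages.

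The 41 members raised in replicate 3 at both ages had larger folds and lower levels than the members raised at neither. Their median fold was 5.95 and their median level 2.91 FPKM, against a median fold of 1.74 and a level of 18.5 FPKM in the 101 members raised at neither age. The excess that divides them is part of the younger means, so a larger fold follows in part from the division. Without replicate 3 of both younger ages the median folds were 3.43 and 1.54. The 41 were 27 of the 33 members with a fold of at least 5. Their median levels were 2.46, 2.29 and 7.24 FPKM in the 12-week birds, 2.50, 2.31 and 7.48 FPKM in the 35-week birds, and 0.632, 0.485 and 0.712 FPKM in the 66-week birds. The excess of replicate 3 in them had a median of 3.23-fold at 12 weeks and 2.97-fold at 35 weeks. At 66 weeks, replicate 3 lay above the mean of the other 2 birds in 31 of the 41, with a median ratio of 1.38, against 52.8% of the eligible genes. Among the 174 eligible genes raised at both younger ages, it did so in 69. What the birds numbered 3 share, if anything, was not tested.

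ENSAPLG00000011353, with the largest fold, belonged to these 41. It had 1.34, 0.627 and 3.93 FPKM at 12 weeks, 1.08, 1.24 and 3.24 FPKM at 35 weeks, and 0.175, 0.0305 and 0.155 FPKM at 66 weeks. Replicate 3 was the high bird at both younger ages, and the lowest younger value was 3.59 times the highest 66-week value. It averaged 1.97 ± 1.74 FPKM in 12-week birds, 1.85 ± 1.21 FPKM in 35-week birds and 0.120 ± 0.0782 FPKM in 66-week birds (SD over 3 birds), a 15.4-fold lower level at 66 weeks. After correction for relative depth, its 66-week values stood at 3.98, 1 and 3.94 times the smallest, which 4, 1 and 4 fragments would give. Its 66-week level may therefore rest on very few fragments. The difference of 66 weeks from the mean of the younger ages was -1.26 ± 0.40 (SE) on the log2(FPKM + 1) scale (limma, Benjamini-Hochberg adjusted p = 0.116).

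ENSAPLG00000010637 had the same course at a higher level. It had 4.40, 3.22 and 18.1 FPKM at 12 weeks, 5.67, 5.71 and 17.3 FPKM at 35 weeks, and 0.632, 0.485 and 0.692 FPKM at 66 weeks. The younger birds other than replicate 3 lay within 3.22 to 5.71 FPKM, several-fold above all 66-week birds. It was 14.2-fold lower at 66 weeks, and 6.31-fold lower with replicate 3 of 12 and of 35 weeks left out. Its adjusted p against the mean of the younger ages was 0.0597 from limma with all libraries and 0.0155 without those 2, in a range of 0.0155 to 0.163 over 18 alternatives. Those 2 libraries hold its highest values. Leaving them out narrows the spread that the test divides by, so the smaller adjusted p follows in part from the removal. The members of rank 3 to 12 by fold were 8.86-fold to 13.3-fold lower, from 38.0 FPKM down to 1.16 FPKM in mean level. Of the first 12, 10 were raised in replicate 3 at both younger ages. The member with the widest gap between the ages had 1.40, 1.76 and 3.13 FPKM at 12 weeks, 1.24, 1.24 and 3.47 FPKM at 35 weeks, and 0.208, 0.140 and 0.175 FPKM at 66 weeks. Its lowest younger value was 5.96 times its highest 66-week value. All its 66-week values lay under 0.244 FPKM, the median value of genes above 0 in 1 library only. The ratio thus rests on very low values. This member was not called lower than the mean of the younger ages (limma, adjusted p = 0.0700).

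The only one of the 41 that a test across all genes called lower than the mean of the younger ages had 15.7, 9.99 and 42.2 FPKM at 12 weeks, 12.7, 12.8 and 51.0 FPKM at 35 weeks, and 1.93, 1.22 and 2.52 FPKM at 66 weeks. The order of the birds was that of ENSAPLG00000010637, with replicate 3 highest at every age. It was 12.0-fold lower at 66 weeks (limma, adjusted p = 0.0453). The call held in 8 of 18 alternatives (adjusted p 0.0156 to 0.146 from limma). It was lost without replicate 1 of 12 weeks, on leaving out each library of 35 or 66 weeks in turn, with no filter, with quantile normalization and with no trend. Another course was seen in the member of rank 12. It had 18.5, 10.5 and 125 FPKM at 12 weeks, 30.1, 61.4 and 78.9 FPKM at 35 weeks, and 7.18, 5.96 and 4.29 FPKM at 66 weeks. Here only the 12-week mean rested on 1 bird, and all 35-week birds were high. Without replicate 3 of both younger ages its fold was 2.50 in place of 8.86.

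**Figure D3:**
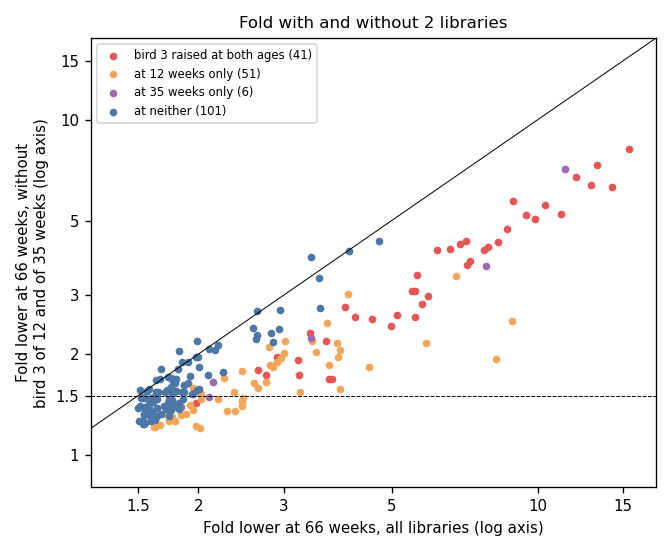
Fold by which the 66-week mean lies under the smaller younger mean with all libraries (horizontal, log axis) and without replicate 3 of 12 and of 35 weeks (vertical, log axis), 1 point per member, coloured by where replicate 3 was raised. The solid line marks equal folds and the dashed line 1.5-fold, under which 68 members lie.

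Without replicate 3 of both younger ages most folds were smaller. All stayed above 1, which the choice of members fixes, since every younger value lies above those of 66 weeks. The median fold became 1.66, in place of 2.01, with a range of 1.21 to 8.20. The fold was still at least 1.5 in 131 of the 199 members and under it in 68. Of the 41 members raised in replicate 3 at both ages, 40 stayed at 1.5-fold or more, at a median of 3.43. Of the 51 raised at 12 weeks only, 31 did, and of the 101 raised at neither, 56 did. The rule applied to the 7 remaining libraries gave 107 genes, 63 of them members. Without replicate 3, the larger younger mean over the smaller had a median of 1.49 in the 51 raised at 12 weeks only. It was 1.19 in the 41, 1.27 in the 6 raised at 35 weeks only and 1.14 in the 101. The lower quartile in the 51 was 1.31, so most of them met the 25% bound only with replicate 3 included. The division picks these members for a high replicate 3 of 12 weeks, so this follows in part from it.

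The 101 members raised at neither age had all 6 younger values within 2-fold of each other in 82. A member raised in replicate 3 at either age spans at least 2-fold, so the division itself places all such members among the 101. The bound on the younger means narrows the range further. The younger values lay within 2-fold in 41.2% of all members and in 58.5% of the eligible genes, and these shares were not tested against each other. The most even of all members had 65.3, 59.8 and 64.0 FPKM at 12 weeks, 58.8, 59.0 and 60.2 FPKM at 35 weeks, and 30.4, 43.3 and 19.6 FPKM at 66 weeks. The younger birds were nearly identical, and the spread lay among the 66-week birds. This member was not called lower than the mean of the younger ages (limma, adjusted p = 0.0518). A member of lower level had 17.6, 17.9 and 17.1 FPKM at 12 weeks, 18.3, 19.0 and 19.1 FPKM at 35 weeks, and 10.7, 10.9 and 9.98 FPKM at 66 weeks. All 3 ages were tight in it, at SDs of 0.397, 0.471 and 0.484 FPKM over 3 birds. It was 1.67-fold lower at 66 weeks, a log2 difference of -0.74 ± 0.079 (SE) from the mean of the younger ages (limma, adjusted p = 0.0179). The call was lost without replicate 1 or 2 of 35 weeks, at 0.0523 and 0.0557, and without replicate 1, 2 or 3 of 66 weeks, at 0.0679, 0.0581 and 0.0793, in a range of 0.0101 to 0.0793 over all alternatives.

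The member with the smallest adjusted p also had the largest fold among these 101. It had 76.5, 99.9 and 60.2 FPKM at 12 weeks, 62.2, 71.5 and 84.4 FPKM at 35 weeks, and 15.7, 18.3 and 12.3 FPKM at 66 weeks. Replicate 3 was the lowest bird at 12 weeks and the highest at 35 weeks. It averaged 78.9 ± 19.98 FPKM in 12-week birds, 72.7 ± 11.2 FPKM in 35-week birds and 15.4 ± 3.005 FPKM in 66-week birds (SD over 3 birds), a 4.72-fold lower level at 66 weeks. The log2 difference from the mean of the younger ages was -2.22 ± 0.19 (SE; limma, adjusted p = 0.0137), and the adjusted p stayed below 0.05 in all 18 alternatives (0.0055 to 0.0471). The rule used these same values, and the member was then picked for its smallest adjusted p. The alternatives reuse the same libraries, so they are given as a description. The rule used the values of every member, so each adjusted p of a single member is a description as well.

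This member, the tight one just described and 1 more were the 3 called against both 12 and 35 weeks. This further member had 70.6, 63.2 and 69.8 FPKM at 12 weeks, 80.0, 70.4 and 85.1 FPKM at 35 weeks, and 32.5, 39.4 and 30.8 FPKM at 66 weeks. None of its younger birds came below 63.2 FPKM and none of its 66-week birds above 39.4 FPKM. It was 1.98-fold lower at 66 weeks (limma, adjusted p = 0.0179 against the mean of the younger ages). That adjusted p was 0.0523 without replicate 1 of 35 weeks, 0.0679 without replicate 1 and 0.0792 without replicate 3 of 66 weeks, and below 0.05 in the other 15 alternatives, the smallest 0.0126. These alternatives concern the contrast with the mean of the younger ages. Of the calls of the 3 against 12 weeks, 0 were left under the replicate block, and at most 1 was left on leaving out any 1 library.

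**Figure D4:**
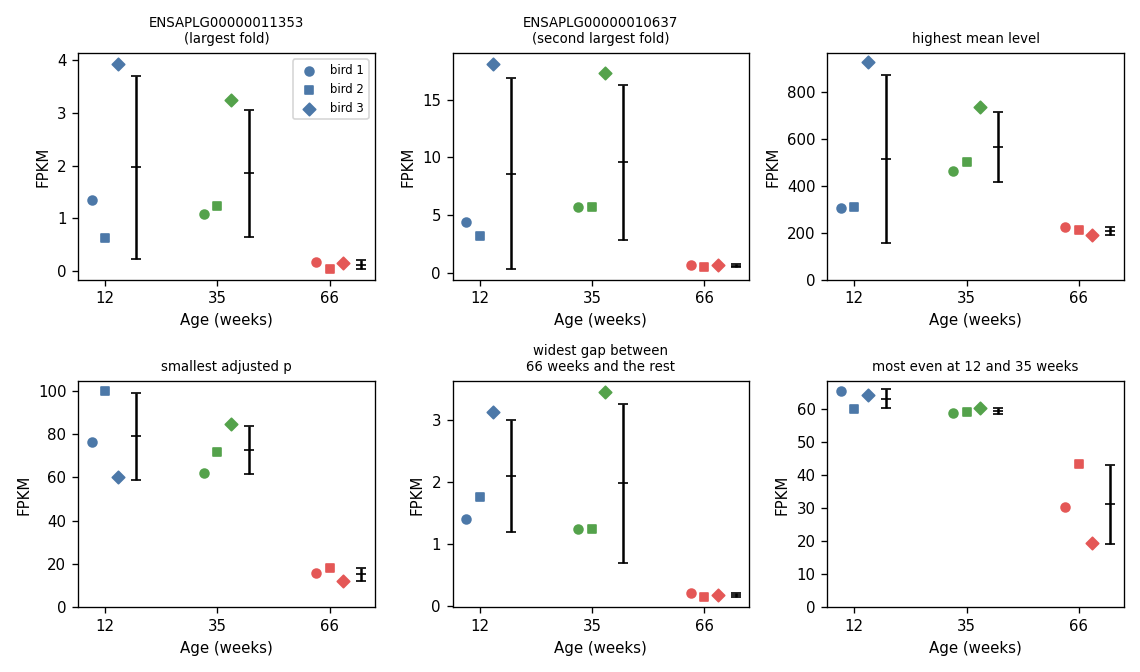
FPKM of 6 members in each library by age, with a symbol per replicate and the mean ± SD of the 3 birds in black. In the upper row the diamonds of replicate 3 stand above the other birds at 12 and 35 weeks, and in the panels of the smallest adjusted p and of the most even member they do not do so at 12 weeks.

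The members of highest level covered 118 to 428 FPKM on average. The highest had 303, 311 and 924 FPKM at 12 weeks, 461, 498 and 734 FPKM at 35 weeks, and 223, 210 and 189 FPKM at 66 weeks. Replicate 3 of 12 weeks was 3.01-fold above its age mates, and the fold of 2.47 became 1.48 without the 2 libraries. Over the 10 members of highest level, the fold ran from 1.52 to 3.72, and from 1.22 to 2.31 without them. Replicate 3 was not the highest at both younger ages in all 10, and in 1 of them it was the lowest at both. This member had 155, 129 and 105 FPKM at 12 weeks, 172, 166 and 141 FPKM at 35 weeks, and 49.6, 83.0 and 62.5 FPKM at 66 weeks. Its fold was 1.99 with all libraries and 2.18 without the 2. Its adjusted p against the mean of the younger ages was 0.0367 (limma), below 0.05 in 10 of 18 alternatives. That was the smallest of the 10, which ran up to 0.141.

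A fit of all 11491 genes that averaged 1 FPKM or more (limma on log2(FPKM + 1), 3 ages in 1 model, Benjamini-Hochberg adjusted p below 0.05) called 25 of the 199 members lower at 66 than at 35 weeks, where 2.38% of all tested genes were called lower. It called 3 members lower at 66 than at 12 weeks, against 0.087%, and 26 lower at 66 weeks than the mean of the younger ages, against 1.03%. The choice of members used these contrasts, so nothing is read from the counts. The median log2 difference of the members was -0.9999 against 35 weeks and -0.88 against 12 weeks, and that of all tested genes 0.020 and 0.029. Both comparisons share the 66-week libraries. Of the 26, 23 were raised in replicate 3 at neither age and 1 at both. A raised bird widens the spread within its age, which the test divides by, so this split follows in part from the division. Within an age, the SD of log2(FPKM + 1) of the members had a median of 0.492, 0.339 and 0.185 at 12, 35 and 66 weeks, beside 0.278, 0.215 and 0.211 over the tested genes. The rule holds every 66-week value under the younger ones and sets no upper limit on single younger values. Adding 1 also narrows the spread of low values, so the SDs of the members follow in part from the choice and the scale.

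The number of members called turned on single libraries, and the share of all tested genes called lower moved with it. Against 35 weeks, 126 members and 8.06% of all genes were called without replicate 3 of 12 weeks, which enters that contrast through the shared spread and the filter on low values. Without replicates 1 and 2 of 12 weeks, 17 and 29 members were called, beside 1.44% and 2.85% of all genes. The members called were 0, 0 and 1 without replicates 1, 2 and 3 of 35 weeks, beside 0.0087%, 0.0349% and 0.0959% of all genes. They were 3, 4 and 0 without those of 66 weeks, beside 0.271%, 0.087% and 0.0435%. Against the mean of the younger ages they were 13, 37 and 65 without replicates 1, 2 and 3 of 12 weeks, beside 0.504%, 2.1% and 2.49% of all genes. They were 1, 2 and 3 without those of 35 weeks and 1, 5 and 1 without those of 66 weeks, where 0.0261% to 0.105% of all genes were called. Against 12 weeks, the 3 became 0, 1 and 1 without the 12-week replicates, 0, 0 and 1 without those of 35 weeks and 0, 1 and 0 without those of 66 weeks, with at most 0.0262% of all genes called. With replicate 3 of both younger ages left out, 186 members were among the 11422 genes tested. Of these, 71 were called lower than at 35 weeks, 1 lower than at 12 weeks and 55 lower than the mean, beside 4.19%, 0.0963% and 2.0% of all genes. Both birds left out were the highest of their age in 149 of the 199 members. Leaving out such birds can narrow the spread, so these counts may follow in part from the removal.

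A value that the choice did not use was obtained by choosing genes on 8 libraries and reading the other. With a 66-week library left out, 254, 272 and 268 genes were chosen without replicates 1, 2 and 3. The library left out lay below all 6 younger values in 79.9%, 77.9% and 80.2% of them, against 20.1%, 16.8% and 19.0% of the genes eligible on those 8 libraries. Its median ratio to the smaller younger mean was 0.513, 0.556 and 0.530. All 3 birds of 66 weeks were thus low in most genes chosen without them, with lane and age still not separable. The younger values they are set against were part of the choice. The eligible genes had no such choice, so their shares do not show what the choice alone would give.

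For the younger birds the outcome differed between libraries. The 66-week values they are set against were likewise part of the choice, and the same limit holds. Without replicate 3 of 12 weeks 68 genes were chosen, and that bird lay above all 66-week values in 88.2% of them, against 35.2% of the eligible genes. Without replicates 1 and 2 of 12 weeks 297 and 377 were chosen, and the bird left out lay above all 66-week values in 77.8% and 66.8%, against 26.2% and 24.5%. The 35-week birds lay above all 66-week values in 89.2%, 100% and 97.0% of 166, 174 and 197 genes, against 28.3%, 31.0% and 36.2%. The bird left out was at least 1.5 times the 66-week mean in 47.8%, 38.2% and 79.4% of the genes for replicates 1, 2 and 3 of 12 weeks, against 8.46%, 7.36% and 17.7% of the eligible genes. For those of 35 weeks it was so in 63.3%, 89.1% and 95.9%, against 13.3%, 16.5% and 18.7%. The median ratio of the 35-week birds to the 66-week mean was 1.63, 2.1 and 3.01 for replicates 1, 2 and 3, and that of the 12-week birds 1.47, 1.3 and 2.02.

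**Figure D5:**
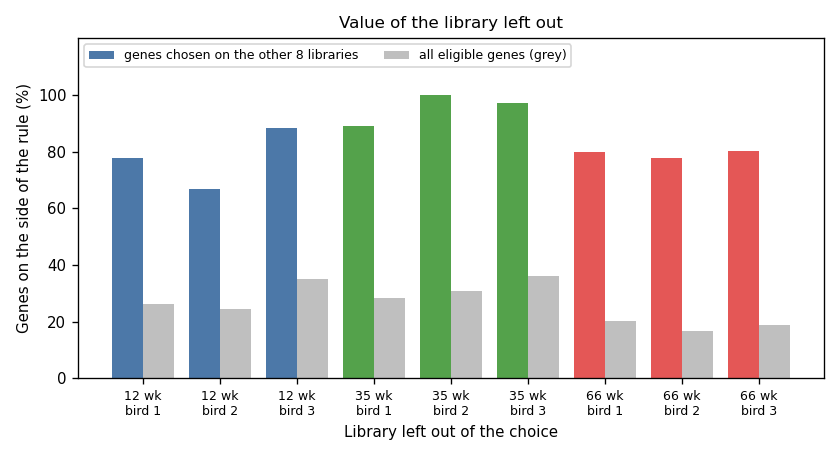
Share of genes (vertical axis, %) in which the library left out of the choice lies on the side of the rule, below all younger values for a 66-week library and above all 66-week values for a younger one, for genes chosen on the other 8 libraries (coloured) and all eligible genes (grey). The coloured bars run from 66.8% (replicate 2 of 12 weeks) to 100% (replicate 2 of 35 weeks), and the grey bars from 16.8% to 36.2%. The values that the library is set against were part of the choice for the coloured bars only.

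The mean profile of the members, from z-scores of log2(FPKM + 1) over the 9 libraries, was highest in replicate 3 of 12 and of 35 weeks, at 1.32 and 1.24. It was 0.09 and 0.02 in the other 12-week birds, 0.25 and 0.49 in the other 35-week birds, and -1.16, -1.11 and -1.13 at 66 weeks. A member's own profile had a median Pearson's r of 0.93 with it, and at least 0.9 in 146 of the 199. Each member is part of this mean, and the rule places its 66-week values lowest, so a high r is in part fixed in advance. Of the 4 genes outside the rule with the most similar profile, the first had an r of 0.994 and was 1.41-fold lower at 66 weeks. It had 51.4, 48.6 and 64.0 FPKM at 12 weeks, 50.1, 55.2 and 64.7 FPKM at 35 weeks, and 39.7, 38.1 and 38.4 FPKM at 66 weeks. The other 3 had an r of 0.982, 0.981 and 0.976, and failed on a ratio of 1.41 between the younger means with 2 libraries listed at 0, on a ratio of 1.39 and on a fold below 1.5.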

How the data were processed

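Abdominal fat RNA of 9 ducks (3 each at 12, 35 and 66 weeks) was sequenced. The authors deposited 1 table of FPKM, a column for each bird, per the file headers. The submitters' processing notes name Cuffdiff, Cufflinks 2.1.1 and TopHat2 2.0.9. What each tool did, the build, the gene models and whether libraries were scaled to each other are not stated in the sources used here. The depth in fragments is unknown, so no counting interval is given, and all 9 columns were used.

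The rule was applied to FPKM as deposited. Tests were run with limma 3.58.1 in R 4.3.3 on log2(FPKM + 1) for genes averaging 1 FPKM or more, with an intensity trend, 6 residual and 2.03 prior degrees of freedom, two-sided, with Benjamini-Hochberg adjustment over 11491 genes. This scale understates the change of low genes. The fit was tested on simulated data, with changes placed only in genes of higher level and of spread below the median. That test does not show how the fit performs on members of low level or wide spread. Medians and ratios were computed with pandas 2.3.3 and numpy 2.4.6 in Python 3.11.15. Relative depth was taken from the most frequent ratio between libraries among genes above 0 in 2 to 6 of them.

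The members and lists were chosen with earlier results of these data known. Named members were the 12 with the largest fold, the 10 of highest mean and the 6 with the smallest adjusted p against the mean of the younger ages, 28 in all. With no symbols, 2 identifiers are printed and the gene and marker lists were not matched. Alternatives covered pseudocount, filter, scaling, block, trend, thresholds and each library left out.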

Additional observations from a re-analysis of the deposited data

How the results depend on the processing

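The 199 members became 102 with a fold threshold of 2, 355 when the younger means had to be only 25% above the 66-week mean, and 132 with a mean of at least 5 FPKM, as these change the rule itself. Median-ratio scaling gave 225 (195 shared) and quantile normalization 231 (170 shared). Without 1 library at a time the rule gave 68 to 377 genes, the lowest without replicate 3 and the highest without replicate 2 of 12 weeks, and 107 with replicate 3 of both younger ages left out, an alternative chosen after seeing the data. Members with replicate 3 highest at both younger ages were 142 and 144 of 199 under the 2 scalings, also chosen after seeing the data.

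Members called lower by limma at 66 than at 35 weeks, 25, became 14 with no filter, 71 without both libraries numbered 3, and 0 to 126 without 1 library, while the share of all genes called, 2.38%, became 1.09%, 4.19%, and 0.0087% to 8.06%. Against the mean of the younger ages, 26 became 15 with no filter, 41 at a pseudocount of 0.1, 46 at 0.01, 41 with median-ratio scaling, 55 without both libraries, and 1 to 65 without 1 library. The share of all genes, 1.03%, became 0.448%, 1.44%, 1.51%, 1.71%, 2.0%, and 0.0261% to 2.49%. Against 12 weeks, 3 became 0 with the replicate block, 1 without both libraries, and 0 to 1 without 1 library. The share of all genes, 0.087%, became 0%, 0.0963%, and at most 0.0262%. Where no cause is given, the cause was not tested. The replicate block gave 23 against 35 weeks and 27 against the mean, beside 1.17% and 0.705% of all genes. The labels do not say that a replicate number pairs birds, and the correlations of deviations between libraries of the same number ran from -0.0939 to 0.215 (replicate 3 of 12 and of 35 weeks), not above 0.1 in every pair, so the block was not taken as pairing. What libraries of the same number share was not tested. Of 485 values of named members under the alternatives, 404 kept their side of the threshold, 44 lost and 37 gained a call, and 0 changed sign. The choice of members fixes that sign in most alternatives. In 15 members a 66-week value lay under 0.244 FPKM, the median value of genes above 0 in 1 library only. How far depth limits their folds was not tested.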
